A study of Mus musculus with 41 samples.

Results

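Potassium chloride (KCl) depolarizes cultured neurons and switches on activity-dependent transcription, and 812 sites of RNA polymerase II (Pol II) were selected on their appearance in neurons after 1 h of KCl. These gained sites are entries on chromosomes 1 to 19 of the Pol II 1 h list labelled LSD1n WT. Each lies within 1 kb of an entry of the 1 h list labelled LSD1n KO, and none lies within 1 kb of an entry of either Pol II list at 0 h. They are 812 of the 13839 autosomal sites of their list (5.87%) and were chosen by measured values, the presence and absence of Pol II in the 4 Pol II lists, so their Pol II gain is a description and not a result. The sites set beside them are the 10215 sites (73.8%) of the same list that lay within 1 kb of an entry in each of the other 3 Pol II lists, called kept sites here. A further 1054 sites had a neighbour in a single 0 h list, and 1758 sites had none in the other 1 h list.

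Cultured cortical neurons of the mouse, 10 days in vitro, were kept in 55 mM KCl for 1 h or for 0 h and profiled by chromatin immunoprecipitation with sequencing (ChIP-seq). The groups used are LSD1n KO and LSD1n WT neurons for Pol II and for the histone marks H3K4me1, H4K20me1 and H3K36me3, with H3K4me2 in LSD1n WT neurons alone. LSD1 was profiled with an antibody in wild type neurons at 1 h and 0 h, in LSD1n KO neurons at a KCl time that the labels do not give, and in LSD1n WT neurons at 0 h. Flag antibody was used on R26/LSD1n and R26/LSD1c neurons, which by their labels carry tagged LSD1n or LSD1c, and the labels name no promoter or Cre line for these or for the knockout. Each group was 1 library apart from H4K20me1 in LSD1n WT neurons at 1 h, which had 2, and nothing says which libraries came from separate cultures.

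Pol II transcribes messenger RNAs and also short unstable RNAs at enhancers, the distal elements that raise the activity of promoters. Enhancer chromatin is rich in H3K4me1, active promoters carry H3K4me3 at their centre with H3K4me1 on the flanks, and H3K4me2 is found at both. LSD1 (KDM1A) removes mono- and dimethyl groups from histone H3, and its neuron-specific splice form LSD1n differs from the canonical form by a microexon. H4K20me1 and H3K36me3 mark the bodies of transcribed genes.

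Total tags ran from 6990017 to 34859557 over the 27 lists, and the lists held 940 to 62945 peaks. The Pol II libraries at 1 h had 22336241 tags (labelled KO) and 21641320 tags (labelled WT), against 16651225 tags (labelled KO) and 14622895 tags (labelled WT) at 0 h. The peak caller's threshold was 13 tags in both 1 h lists and 11 tags in both 0 h lists. Per 1000000 tags that is 0.582 (KO) and 0.601 (WT) at 1 h, against 0.661 (KO) and 0.752 (WT) at 0 h, so the threshold relative to depth was lower at 1 h. The part of this difference in the gain was not tested. With each Pol II list cut to the length of the shortest, 439 sites were gained. In all 4 Pol II lists the library name written inside carries the other genotype than the sample label, and the labels are followed here. The rule uses both genotypes alike except for the base list. With the list labelled KO as the base it gave 816 sites, of which 810 lay within 1 kb of a gained site, and 806 of the 812 gained sites lay within 1 kb of one of these. As a group is 1 library, no test between conditions was made. Ranges in parentheses are 95% Clopper-Pearson intervals, which cover counting error only, and ChIP-seq of a whole culture cannot tell a site used in fewer cells from one with less signal per cell.

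Gained sites stood late in their list. The files do not say what the order of entries is, but kept sites were 98.5% of the first of 5 equal parts of the list and 19.1% of the last. Gained sites had a median place of 82.0% of the list, against 37.2% for kept sites. The first gained site was entry 2301, at 16.0% of the list. Over the 5 parts, first to last, gained sites were 4 of 2827, 21 of 2804, 67 of 2756, 268 of 2724 and 452 of 2728 autosomal sites, or 0.141%, 0.749%, 2.43%, 9.84% and 16.6%. The last 2 parts thus held 720 gained sites (88.7%). The 1 h list labelled KO held a site that overlapped directly at 618 gained sites (76.1%) and at 88.7% of kept sites.

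**Figure D1:**
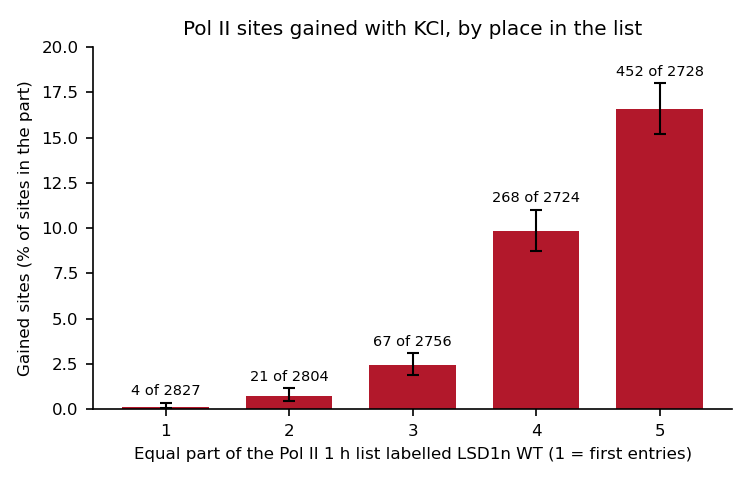
Share of the autosomal sites of the Pol II 1 h list labelled LSD1n WT that were gained with KCl (vertical axis, percent) in each of 5 equal parts of the list by place (horizontal axis). Bars are shares, whiskers 95% Clopper-Pearson intervals; the share is 0.141% in the first part and 16.6% in the last.

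Because place and overlap with other lists go together, the main shares of kept sites are also given after weighting the 5 parts of the list as the gained sites fill them. These are called place-weighted shares. Sites that were neither gained nor kept were not set beside gained sites as a class of their own. A difference from kept sites may be shared with them and need not be particular to gained sites. A mark or protein counts as present where its list has a peak that overlaps the Pol II site by at least 1 bp.

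H3K4me1, the enhancer mark, was present at a larger share of gained sites than of kept sites in all 4 of its lists, and at many gained sites before KCl. It overlapped 481 gained sites (59.2%, 55.8 to 62.6) in LSD1n KO neurons at 1 h, against 27.3% of kept sites (place-weighted 40.6%). In LSD1n KO neurons at 0 h it overlapped 289 gained sites (35.6%, 32.3 to 39.0), against 10.01% of kept sites (place-weighted 17.6%). In LSD1n WT neurons at 1 h it overlapped 424 gained sites (52.2%, 48.7 to 55.7), against 24.3% of kept sites (place-weighted 34.7%). In LSD1n WT neurons at 0 h it overlapped 339 gained sites (41.7%, 38.3 to 45.2), against 13.4% of kept sites (place-weighted 21.0%). The ratio of gained to kept shares was thus 2.17 (KO) and 2.15 (WT) at 1 h and 3.55 (KO) and 3.11 (WT) at 0 h. Over all Pol II sites H3K4me1 was at 33.5% (KO) and 29.6% (WT) at 1 h. At 0 h it was at 15.1% (KO) and 18.7% (WT) of them. In WT neurons at 1 h the mark was at 52.2%, 51.9% and 53.1% of gained sites in parts 3, 4 and 5, against 25.5%, 32.7% and 37.9% of kept sites. At 0 h it was at 41.8%, 46.6% and 40.04% of gained sites in those parts, against 14.3%, 19.01% and 23.8% of kept sites. With only the first 50% of each 1 h list, 0 h H3K4me1 was at 22.7% of the 22 gained sites.

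**Figure D2:**
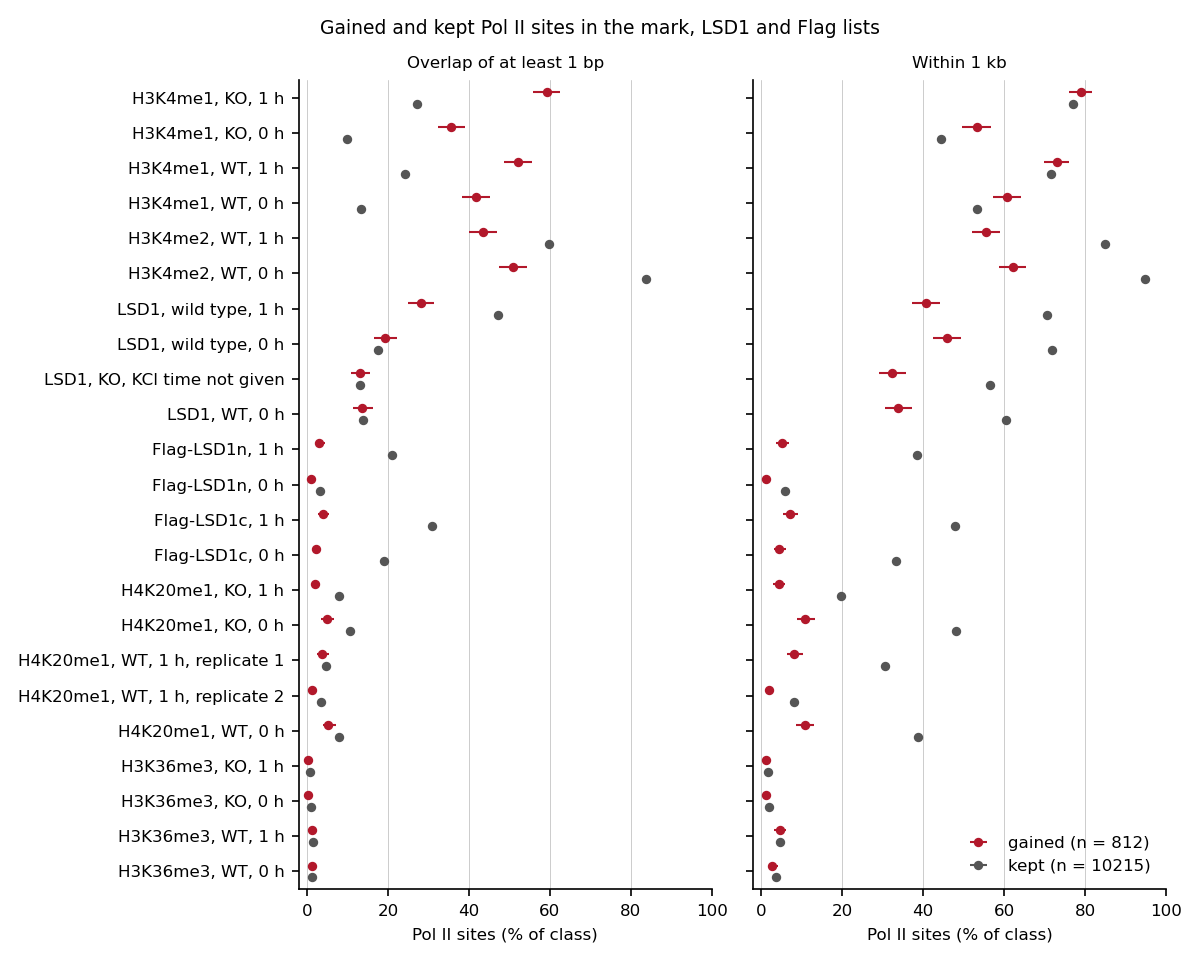
Share of the 812 gained (red) and 10215 kept (grey) Pol II sites that overlap a peak of each list by at least 1 bp (left) or lie within 1 kb of one (right), in percent of the class; bars are 95% Clopper-Pearson intervals. Gained sites lie right of kept sites in the 4 H3K4me1 lists by overlap and left of them for H3K4me2 and both Flag proteins, and for H3K4me1 at 1 h the classes are closer within 1 kb (73.0% of gained and 71.5% of kept sites in WT neurons).

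The difference in H3K4me1 was larger at the Pol II site itself than within 1 kb of it. Within 1 kb of the site, H3K4me1 in WT neurons at 1 h was found for 73.0% of gained sites (69.8 to 76.1) and 71.5% of kept sites (70.6 to 72.4), where the intervals overlapped, but the place-weighted share of kept sites, 67.1%, lay below the interval of the gained sites. In KO neurons at 1 h the mark was within 1 kb of 78.9% of gained sites (75.97 to 81.7) and 77.1% of kept sites (place-weighted 75.7%). At 0 h it was within 1 kb of 53.2% of gained against 44.3% of kept sites (place-weighted 45.8%) in KO neurons, and of 60.8% of gained against 53.2% of kept sites (place-weighted 51.5%) in WT neurons. Around gained sites, coverage by H3K4me1 regions in WT neurons at 1 h was 48.3% at the centre, 48.4% at its maximum 100 bp away, 41.9% at 500 bp and 28.8% at 1 kb. Around kept sites it was 20.7% at the centre, 25.6% at 500 bp and 31.2% at 1 kb, with its maximum of 31.3% at 900 bp. In KO neurons at 1 h coverage was 55.7% at the centre and 35.2% at 1 kb of gained sites, against 23.1% at the centre and 37.1% at 1 kb of kept sites. Kept sites thus had a dip in H3K4me1 at the Pol II site, and at gained sites the maximum was within 100 bp of the centre in both genotypes at both times.

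**Figure D3:**
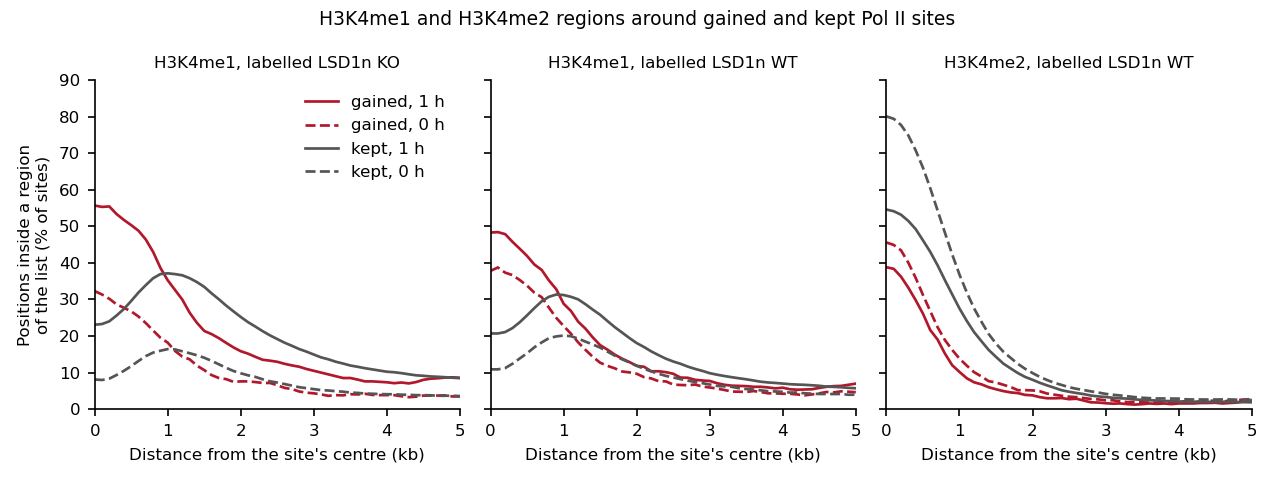
Share of positions inside an H3K4me1 or H3K4me2 region (vertical axis, percent of sites, left and right sides pooled) by distance from the centre of the Pol II site (horizontal axis, kb), for gained (red) and kept (grey) sites at 1 h (solid) and 0 h (dashed). H3K4me1 at gained sites is highest within 100 bp of the centre and lower at 1 kb (48.3% at the centre, 28.8% at 1 kb, WT 1 h) and has a dip at the centre of kept sites (20.7% at the centre, 31.2% at 1 kb), while H3K4me2 is centred on both.

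The H3K4me1 regions that held gained sites were wide. In KO neurons the median width was 1954 bp for the 1 h regions and 1465 bp for the 0 h regions, against 1517 bp and 787 bp for regions that held kept sites and 805 bp and 645 bp for all autosomal regions of the lists. In WT neurons the medians were 1697 bp (1 h) and 1637 bp (0 h) for gained sites, against 1237 bp and 817 bp for kept sites and 757 bp and 655 bp for all regions. A gained site was inside a region at both times at 271 sites in KO neurons, where the 1 h region was the wider one at 88.6% with a median ratio of 1.57. In WT neurons there were 284 such sites, with 63.4% wider at 1 h and a median ratio of 1.10. All regions of the 1 h lists that were also called at 0 h had ratios of 1.59 (KO) and 1.16 (WT), so by median ratio the widening at gained sites was near that of the whole list. Of all those regions, 80.7% (KO) and 59.7% (WT) were wider at 1 h. At kept sites 79.0% (KO) and 65.6% (WT) were.

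Most gained sites that had H3K4me1 after KCl had it before KCl. In KO neurons 271 were in both lists, 210 in the 1 h list alone and 18 in the 0 h list alone, against 21.6% of all 13839 Pol II sites in the 1 h list alone and 3.14% in the 0 h list alone. In WT neurons 284 gained sites were in both lists, 140 in the 1 h list alone and 55 in the 0 h list alone. That is 17.2% and 6.77% of gained sites, near the 16.7% and 5.78% of all Pol II sites for the 1 h list alone and the 0 h list alone. In KO neurons it is 25.9% and 2.22% of gained sites. Both lists held 33.4% of gained and 11.9% of all Pol II sites in KO neurons, and 35.0% and 12.9% in WT neurons. Of gained sites with H3K4me1 at 1 h, 56.3% (KO) and 67.0% (WT) had it at 0 h. Of all Pol II sites with it at 1 h, 35.6% (KO) and 43.7% (WT) did. The larger share in the 1 h list alone in KO neurons goes with a longer list: the KO 1 h list covered 77.6 Mb of autosomes from 34859557 tags, against 31.6 Mb from 22970480 tags for the KO 0 h list. The WT lists covered 49.9 Mb at 1 h and 36.7 Mb at 0 h, from 23440511 and 23973912 tags. The part of list length and depth in these counts was not tested. Of gained sites with H3K4me1 in WT neurons at 0 h, 83.8% (79.4 to 87.5) still had it at 1 h, against 59.1% (56.5 to 61.7) of kept sites. All 4 H3K4me1 lists overlapped 195 gained sites (24.0%, 21.1 to 27.1) and 3.23% of kept sites. No H3K4me1 list overlapped 238 gained sites (29.3%) and 57.0% of kept sites. A gain of H3K4me1 together with Pol II, present in both 1 h lists and in neither 0 h list, was seen at 45 gained sites (5.54%, 4.07 to 7.35), against 5.50% of kept sites and 5.69% of all sites.

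Between genotypes, 354 gained sites had H3K4me1 in both 1 h lists, 127 in the KO list alone (15.6%) and 70 in the WT list alone (8.62%). Over all Pol II sites those single-list shares were 14.1% and 10.2%. Both 1 h lists held 43.6% of gained sites and 19.4% of all Pol II sites. At 0 h, 217 gained sites had the mark in both lists, 72 in the KO list alone (8.87%) and 122 in the WT list alone (15.0%), where all Pol II sites gave 6.49% and 10.1%. Both 0 h lists held 26.7% of gained sites and 8.58% of all Pol II sites. The order of the genotypes turned round between the times, in gained sites as in all Pol II sites, and the KO list was the longer one at 1 h and the shorter one at 0 h.

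Against kept sites, H3K4me2 went the other way from H3K4me1. It overlapped 353 gained sites at 1 h (43.5%, 40.03 to 46.96), against 59.9% of kept sites (place-weighted 66.2%) and 53.7% of all Pol II sites. At 0 h it overlapped 414 gained sites (51.0%, 47.5 to 54.5), against 83.8% of kept sites (place-weighted 76.0%) and 73.5% of all Pol II sites. Within 1 kb it was found for 55.7% of gained and 85.0% of kept sites at 1 h (place-weighted 82.6%), and for 62.2% of gained and 94.7% of kept sites at 0 h (place-weighted 87.7%). Coverage was highest at the centre in both classes, 38.8% of gained and 54.6% of kept sites at 1 h and 45.6% of gained and 80.05% of kept sites at 0 h. The regions that held gained sites were narrower, with medians of 937 bp at 1 h and 1079 bp at 0 h, against 1423 bp and 1719 bp for kept sites. H3K4me2 was at 263 gained sites in both lists, at 90 in the 1 h list alone (11.1%) and at 151 in the 0 h list alone (18.6%). Over all Pol II sites those shares were 6.44% for the 1 h list alone and 26.2% for the 0 h list alone. Both H3K4me2 lists held 32.4% of gained sites and 47.3% of all Pol II sites. The H3K4me2 libraries were the shallowest of the 27, with 6990017 tags at 1 h and 9418008 tags at 0 h, and the part of this in the lower 1 h share was not tested.

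The lower share of H3K4me2 depended on place. In part 3 of the list it was at 58.2% of gained sites (45.5 to 70.2) and 61.3% of kept sites at 1 h. In part 5 it was at 38.1% of gained sites (33.6 to 42.7) and 67.0% of kept sites. At 0 h the shares were 67.2% of gained and 84.4% of kept sites in part 3, and 46.7% of gained and 71.6% of kept sites in part 5. Parts 1 and 2 held only 25 gained sites, of which 17 had H3K4me2 at 1 h and 22 had it at 0 h. With only the first 50% of each 1 h list, 22 sites were gained and the order turned, at 81.8% of gained and 57.1% of kept sites at 1 h and 90.9% of gained and 86.0% of kept sites at 0 h.

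**Figure D4:**
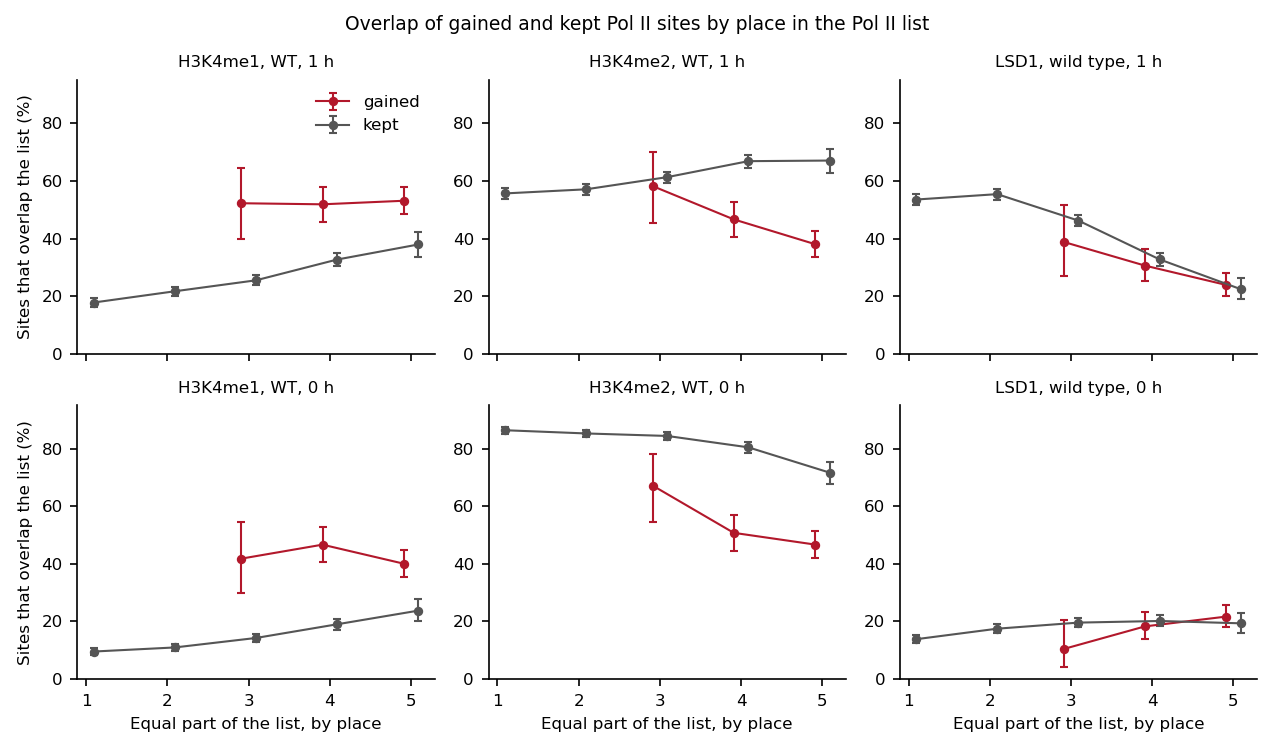
Share of gained (red) and kept (grey) sites that overlap H3K4me1, H3K4me2 or LSD1 peaks (vertical axis, percent) in each of 5 equal parts of the Pol II list by place (horizontal axis), at 1 h (top) and 0 h (bottom), with 95% Clopper-Pearson intervals. Gained sites are drawn for the last 3 parts, since the first 2 hold 4 and 21 of them; in the last part H3K4me1 at 1 h is at 53.1% of gained and 37.9% of kept sites, and LSD1 at 1 h at 23.9% of gained and 22.4% of kept sites.

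Both marks were then combined in WT neurons. At 1 h, H3K4me1 alone was at 231 gained sites (28.4%), against 6.66% of kept sites, and neither mark was at 228 gained sites (28.1%), against 33.5% of kept sites. At 0 h, 577 gained sites (71.1%) had H3K4me1, H3K4me2 or both before KCl, against 85.5% of kept sites. H3K4me1 alone was at 163 gained sites (20.1%, 17.4 to 23.0), against 172 kept sites (1.68%, 1.44 to 1.95). Both marks were at 176 gained sites (21.7%) and 11.7% of kept sites, and H3K4me2 alone was at 238 gained sites (29.3%) and 72.1% of kept sites. Neither mark was at 235 gained sites (28.9%), against 14.5% of kept sites. Sites that started with both marks and were listed with a single mark at 1 h differed between the classes. Of 176 such gained sites, 62 had H3K4me1 alone (35.2%) and 16 had H3K4me2 alone (9.09%), whereas of 1198 such kept sites 10.4% had H3K4me1 alone and 29.0% had H3K4me2 alone. Of the 235 gained sites with neither mark at 0 h, 143 had neither at 1 h (60.9%), 46 had H3K4me1 alone (19.6%), 36 had H3K4me2 alone (15.3%) and 10 had both (4.26%). Of the 1482 kept sites with neither mark at 0 h, 57.8% had neither at 1 h, 5.94% had H3K4me1 alone, 29.4% had H3K4me2 alone and 6.82% had both.

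**Figure D5:**
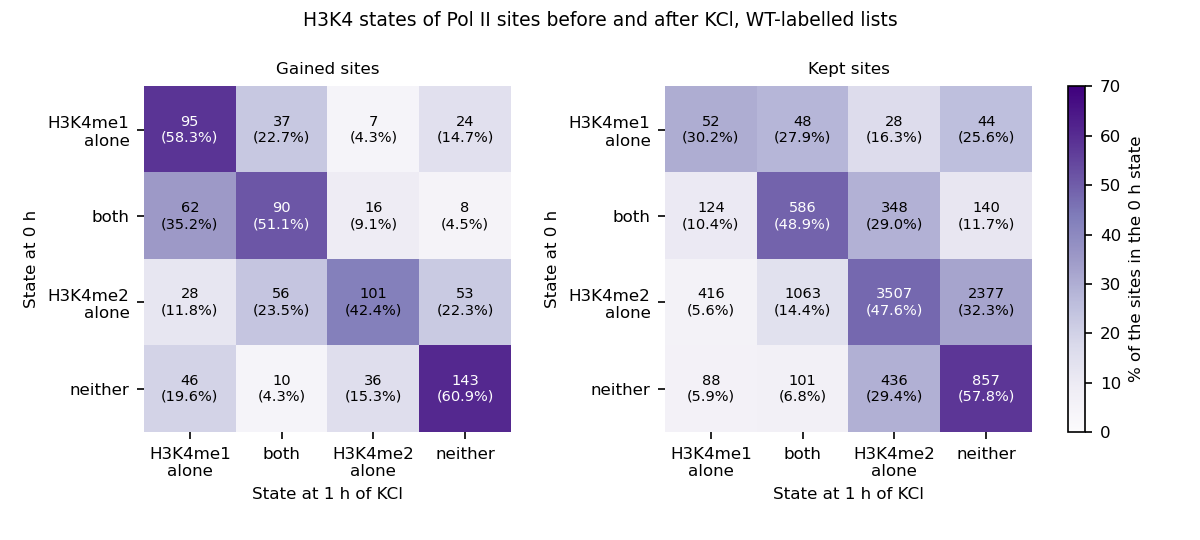
Number of gained (left) and kept (right) Pol II sites in each combination of H3K4me1 and H3K4me2 at 0 h (rows) and at 1 h (columns) in lists labelled LSD1n WT, with the percent of the 0 h state in parentheses and by colour. Of gained sites with both marks at 0 h, 62 had H3K4me1 alone at 1 h and 16 had H3K4me2 alone, and for kept sites the order is the other way round (124 and 348).

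LSD1, detected with an antibody, was at 228 gained sites in wild type neurons at 1 h (28.1%, 25.01 to 31.3) and at 157 at 0 h (19.3%, 16.7 to 22.2). Kept sites had 47.1% at 1 h and 17.6% at 0 h. The place-weighted shares of kept sites were 28.8% at 1 h and 19.6% at 0 h, inside the intervals of the gained sites, so by overlap LSD1 was listed about as often as at kept sites of the same place. Within 1 kb it was not: 40.6% of gained sites at 1 h against 70.7% of kept sites (place-weighted 47.8%), and 45.9% of gained sites at 0 h against 71.9% of kept sites (place-weighted 63.6%). Sites with LSD1 at one time mostly lacked it at the other. It was at 60 gained sites in both lists, at 168 in the 1 h list alone (20.7%) and at 97 in the 0 h list alone (11.9%), where all Pol II sites gave 31.6% and 7.7%. Both lists held 7.39% of gained sites and 9.19% of all Pol II sites. For the 330 gained sites with an LSD1 peak within 1 kb at 1 h, the median distance between centres was 125 bp, against 138 bp for kept sites. For the 373 with one at 0 h it was 247 bp, against 340 bp for kept sites.

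In the LSD1 lists of LSD1n KO and LSD1n WT neurons, gained and kept sites had like shares by overlap but not within 1 kb. By overlap LSD1 was at 107 gained sites in the KO list (13.2%, 10.9 to 15.7), against 13.1% of kept sites, and 111 gained sites in the WT 0 h list (13.7%, 11.4 to 16.2), against 14.0% of kept sites. Within 1 kb it was at 32.4% of gained against 56.6% of kept sites in the KO list, and at 33.9% of gained against 60.6% of kept sites in the WT 0 h list. The lists shared 48 gained sites, with 59 in the KO list alone (7.27%) and 63 in the WT list alone (7.76%). All Pol II sites gave 6.78% for the KO list alone and 7.52% for the WT list alone. Both lists held 5.91% of gained sites and 5.34% of all Pol II sites. As the KCl time of the KO library is not given, genotype and time cannot be told apart there.

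Among gained sites, LSD1 in wild type neurons at 1 h was listed more often at those with H3K4me1. It was at 33.3% (28.8 to 38.0) of the 424 gained sites with H3K4me1 in WT neurons at 1 h and at 22.4% (18.4 to 26.9) of the 388 without. Among kept sites those shares were 45.3% with and 47.7% without the mark. For H3K4me2 at 1 h, LSD1 was at 32.0% (27.2 to 37.2) of gained sites with and 25.1% (21.2 to 29.3) without it. Those intervals overlapped, and kept sites had 45.3% with and 49.8% without H3K4me2. At 0 h, LSD1 was at 19.8% of gained sites with and 19.03% without H3K4me1 at 0 h. By the state before KCl, LSD1 at 1 h was at 36.9% of gained sites with both marks, 34.4% with H3K4me1 alone, 29.8% with H3K4me2 alone and 15.3% (11.0 to 20.6) with neither. In the KO and WT 0 h lists LSD1 was most frequent at gained sites with H3K4me2 alone, 23.5% (18.3 to 29.4) in KO neurons and 21.8% (16.8 to 27.6) in WT neurons. At gained sites with H3K4me1 alone those shares were 5.52% (2.56 to 10.2) in KO neurons and 9.20% (5.24 to 14.7) in WT neurons, and at those with neither mark 10.6% (7.00 to 15.3) in KO neurons and 9.79% (6.31 to 14.3) in WT neurons. The wild type 0 h list gave 22.7% (17.5 to 28.5) with H3K4me2 alone and 18.4% (12.8 to 25.2) with H3K4me1 alone. It gave 21.0% (15.3 to 27.8) with both marks and 15.3% (11.0 to 20.6) with neither, and these intervals overlapped. The median places of the 4 groups ran from 79.96% of the list (both marks) to 84.7% (neither mark). The part of place in these LSD1 shares was not tested.

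The tagged LSD1 proteins were listed at a smaller share of gained than of kept sites. Flag-LSD1n was at 24 gained sites at 1 h (2.96%, 1.90 to 4.37) and 8 at 0 h (0.985%), against 21.0% of kept sites at 1 h (place-weighted 13.4%) and 3.14% at 0 h. Flag-LSD1c was at 32 gained sites at 1 h (3.94%, 2.71 to 5.52) and 18 at 0 h (2.22%), against 31.0% of kept sites at 1 h (place-weighted 14.9%) and 19.1% at 0 h. Over all Pol II sites the shares were 16.4% (1 h) and 2.54% (0 h) for Flag-LSD1n. For Flag-LSD1c they were 24.1% (1 h) and 14.8% (0 h). Flag-LSD1n was listed at 1 h alone at 21 gained sites (2.59%) and at 0 h alone at 5 (0.616%), against 15.1% and 1.23% of all Pol II sites. Flag-LSD1c was listed at 1 h alone at 27 gained sites (3.33%) and at 0 h alone at 13 (1.60%), against 17.5% and 8.16% of all Pol II sites. At 1 h the proteins shared 6 gained sites, with 18 for LSD1n alone and 26 for LSD1c alone (0.739%, 2.22% and 3.202%). Kept sites had 9.65% for both, 11.3% for LSD1n alone and 21.4% for LSD1c alone. Their lists were short, with 4438 peaks for Flag-LSD1n and 5480 for Flag-LSD1c at 1 h and 940 and 3922 at 0 h. None of the 8 LSD1 and Flag lists overlapped 410 gained sites (50.5%), against 22.9% of kept sites.

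Of the gene-body marks, H4K20me1 was within 1 kb of a smaller share of gained than of kept sites, and H3K36me3 was rare at both. H4K20me1 lay within 1 kb of 10.8% of gained sites in KO neurons at 0 h (8.78 to 13.2), against 48.0% of kept sites (place-weighted 23.2%). In WT neurons at 0 h it lay within 1 kb of 10.7% of gained sites (8.67 to 13.0), against 38.8% of kept sites (place-weighted 19.2%). By overlap it was at 17 gained sites in KO neurons at 1 h (2.09%) and 40 at 0 h (4.93%), against 8.02% of kept sites at 1 h and 10.6% at 0 h (place-weighted 6.22%). In WT neurons it was at 31 and 11 gained sites in the 2 libraries at 1 h (3.82% and 1.35%), against 4.78% and 3.39% of kept sites, and at 43 at 0 h (5.30%), against 7.85% of kept sites (place-weighted 4.51%). Over all Pol II sites the overlap shares were 6.80% (1 h) and 10.3% (0 h) in KO neurons. In WT neurons they were 7.70% at 0 h, and 5.23% and 2.89% in the 2 libraries at 1 h. Those replicate libraries had 28453 and 2844 peaks, and the KO lists 9022 at 1 h and 36291 at 0 h, so no order of time or genotype is read from H4K20me1. Around kept sites in WT neurons at 0 h its coverage had its maximum of 19.6% at 1600 bp, against 4.86% at 700 bp for gained sites. H3K36me3 was at 3 gained sites in KO neurons at 1 h and 3 at 0 h, and at 11 in WT neurons at 1 h and 10 at 0 h, no more than 1.35% in any list, against at most 1.40% of kept sites. Over all Pol II sites its shares were 0.650% (KO) and 1.54% (WT) at 1 h and 0.932% (KO) and 1.27% (WT) at 0 h.

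Gained sites were mostly single. Of them, 84 formed 42 pairs with gaps of up to 11.4 kb, and no run had more than 2. The other 728 had no gained site nearer than 12.7 kb. The median distance to the nearest kept site was 46.1 kb, against 32.1 kb from a kept site to the next. H3K4me1 at 1 h did not follow that distance: it was at 51.9% of the 189 gained sites between 5 and 20 kb from a kept site, 52.8% of the 345 between 20 and 100 kb and 51.8% of the 245 farther away. LSD1 at 1 h was at 28.0%, 27.5% and 29.0% of the same sites. By chromosome, gained sites were 3.77% (2.21 to 5.97) of the sites of chromosome 16 to 8.01% (5.94 to 10.5) of those of chromosome 13, and these were the lowest and highest of 19 chromosomes.

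The gained sites with the lowest mean place in both 1 h lists were taken as examples, in mm9 coordinates without gene names, as no annotation of that build was used. The first was chr14:76905547-76905747, entry 1759 of the KO list and 2539 of the WT list, with a 0 h site 1.08 kb away, just past the limit. It lay in an H3K4me2 region of 3651 bp at 1 h and 3041 bp at 0 h, with no H3K4me1 in any list. H4K20me1 was there in all WT lists and in no KO list. H3K36me3 was there in WT neurons at 1 h and 0 h and in KO neurons at 0 h alone. LSD1 was there in wild type neurons at 1 h and in no other LSD1 list. The site chr15:76541010-76541210, 4.57 kb from the nearest 0 h site, gained an H3K4me1 region of 3805 bp in WT neurons at 1 h, over H3K4me2 present at 1 h and 0 h. It also held LSD1 at 1 h, Flag-LSD1n at 1 h and Flag-LSD1c at both times. The site chr8:4253031-4253231, 14.0 kb from any 0 h site, had H3K4me1 in both genotypes at 1 h (787 bp in KO, 627 bp in WT) and in neither at 0 h, with an H3K4me2 region of 1059 bp at 1 h and 2765 bp at 0 h. It is 1 of a pair, the other at chr8:4259080-4259280, and LSD1 was at the first at 1 h. The site chr17:56749087-56749287 had H3K4me1 at 1 h in both genotypes and at 0 h in neither, with LSD1 at 1 h. The site chr7:52712741-52712941 was the only one of the 10 with H3K4me1 in all 4 lists, and it had H3K4me2 at 1 h alone.

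The other 5 were chr2:157392295-157392495, chr19:5088313-5088513, chr10:36858601-36858801, chr7:135834351-135834551 and chr11:3102173-3102373. Of all 10, H3K4me2 was at 7 at 1 h and 9 at 0 h, H3K4me1 at 5 in each 1 h list and at 2 (KO) and 1 (WT) at 0 h, and LSD1 in wild type neurons at 6 at 1 h and 1 at 0 h. These early-placed sites had more H3K4me2 and less H3K4me1 at 0 h than the gained sites as a whole, of which 51.0% had H3K4me2 and 41.7% H3K4me1 in WT neurons at 0 h. Early-placed kept sites were alike in WT neurons at 0 h. In parts 1 and 2 of the list they had H3K4me2 at 86.4% and 85.2% and H3K4me1 at 9.55% and 11.0%. All 42 pairs hold 2 sites, so the 3 named first are those with the earliest entry: the chr8 pair, chr13:96900963-96902644 and chr13:101357446-101364292. Both sites of the first chr13 pair had H3K4me2 at both times, and the second chr13 pair was in none of the 23 mark, LSD1 and Flag lists.

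At the 1 kb limit, the nearest gained sites were chr15:25682846-25683046, chr1:100088594-100088794 and chr17:53707570-53707770, at 1038, 1062 and 1065 bp from a 0 h site. Those that just missed were chr1:55133765-55133965, chr17:52741773-52741973 and chr4:63071593-63071793, at 999, 992 and 989 bp. H3K4me1 in WT neurons at 1 h was at 13 of the 32 gained sites with a 0 h site between 1 and 2 kb away (40.6%) and at 45 of 154 sites between 0.5 and 1 kb (29.2%). It was at 411 of the 780 gained sites with none within 2 kb (52.7%).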

How the data were processed

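Peak lists of 27 ChIP-seq libraries were used; 10 samples of GRO-seq and 4 of RNA-seq were not used here. Per the submitters' processing notes, reads were handled with Bowtie and HOMER in build mm9, with no versions given. Per the file headers, Pol II, LSD1 and Flag sites have a set size of 200 bp, at least 500 bp apart, with 4-fold more tags than the surrounding 10 kb. Histone regions were stitched from peaks of 500 bp at most 1250 bp apart. All used a false discovery rate of 0.001, and no control library is named. The deposited values are start and end positions. The score is 1 in every entry, so an entry's place in its list was used.

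Groups follow the sample labels. Distances run between nearest ends, and within 1 kb means a gap of at most 1000 bp. Members and comparisons were chosen with earlier results of these data known. Overlaps, coverage at steps of 100 bp and place-weighted shares were computed with Python 3.11.15 and numpy 2.4.6, intervals with scipy 1.17.1 and figures with matplotlib 3.10.9. The interval arithmetic and the rule were tested on simulated lists. Named sites are the 10 gained sites with the lowest mean place in both 1 h lists and the 3 runs with most gained sites. The 3 sites on each side of the 1 kb limit are also named. Runs were chained at a set distance that lay between the observed gaps of 11.4 and 12.7 kb. Gene names, sequences and motifs were left out, as no genome or annotation of mm9 was used. Alternatives changed the overlap, the limits, the base list, the list lengths and the sites kept.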

Additional observations from a re-analysis of the deposited data

How the results depend on the processing

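For 7 results (the number of gained sites and their shares with H3K4me1, H3K4me2, LSD1 and Flag-LSD1n), 54 alternative values were computed. Of these, 26 stayed within the 95% interval of the reported share, or within 1.5 times the reported number. The alternative that left out sites with a peak of all 8 targets removed 0 of the 812 gained sites. Its values for the 7 results are therefore the reported ones, and they are counted among the 26. Below, shares are in the order H3K4me1 WT 1 h, H3K4me1 WT 0 h, H3K4me2 WT 1 h, H3K4me2 WT 0 h, LSD1 wild type 1 h and Flag-LSD1n 1 h. With an overlap of at least 1 bp in place of the 1 kb limits they were 44.7%, 33.7%, 50.9%, 63.5%, 33.5% and 6.68% of 1048 sites. With at least 50% of the site covered they were 48.3%, 37.8%, 38.8%, 45.6%, 17.5% and 1.60%. With a peak within 1 kb they were 73.0%, 60.8%, 55.7%, 62.2%, 40.6% and 5.17%. With the first 50% of each 1 h list, only 22 sites were gained, and H3K4me1 at 0 h was at 22.7%, H3K4me2 at 81.8% (1 h) and 90.9% (0 h), LSD1 at 50% and Flag-LSD1n at 13.6%. With each list cut to the length of the shortest, 439 sites were gained, with H3K4me1 at 0 h at 38.3% and H3K4me2 at 54.9% (1 h) and 65.6% (0 h). The cause was not tested.

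Gained sites lay above kept sites for H3K4me1, and below them for LSD1 and Flag-LSD1n at 1 h, in all 8 alternatives each. None of these was place-weighted. By overlap, LSD1 at 1 h was at 28.1% of gained sites and a place-weighted 28.8% of kept sites. Within 1 kb those shares were 40.6% and 47.8%. For H3K4me2 gained sites lay below kept sites in 7 of 8. With the first 50% of each list the order turned, at 81.8% of gained and 57.1% of kept sites at 1 h and 90.9% of gained and 86.0% of kept sites at 0 h, which rests on 22 gained sites. No library was left out, as each of these results rests on groups of 1 library. No paired analysis was possible because the only group with 2 libraries, H4K20me1 in LSD1n WT neurons at 1 h, has no second library in the groups it would be paired with.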

Other observations

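Pol II sites were also lost with KCl: 205 of the 12718 autosomal sites of the 0 h list labelled LSD1n WT (1.61%) had a neighbour within 1 kb in the 0 h list labelled KO and none in either 1 h list. In WT neurons, neither H3K4me1 nor H3K4me2 was at 71.2% of them at 1 h and at 71.7% at 0 h, against 28.1% and 28.9% of gained sites. H3K4me1 in WT neurons was at 23.4% of lost sites at 1 h and 14.6% at 0 h. LSD1 in wild type neurons was at 6 lost sites at 1 h (2.93%) and 4 at 0 h (1.95%). Over all autosomal sites of the Pol II 1 h list labelled LSD1n WT it was at 40.8% (1 h) and 16.9% (0 h). H3K36me3 in WT neurons was at 6.34% of lost sites at 1 h and 5.85% at 0 h, against 1.35% and 1.23% of gained sites. Lost and gained sites come from different Pol II lists, and the shares of lost sites were not weighted by place.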
